A study of Mus musculus with 11 samples.

Results

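Transcripts of 45 skeletal muscle genes were followed in mouse skin and in skin tumors that arose after a chemical carcinogen. The genes were taken by symbol, for their known place in the sarcomere, in calcium handling, in muscle metabolism or among the myogenic factors, and they are 45 of the 24974 genes of the deposited table. Of the 45, 42 averaged 0.5 RPKM or more across all libraries and were tested, whereas Myh3, Myog and Pax7 fell short of that level. RPKM are mapped reads scaled to gene length and to library size, so each value is a share of its library. The 11 libraries were DLX3cKO tumors (n = 5), DLX3cKO skin (n = 3), described as unaffected whole skin, and WT skin (n = 3). Dlx3 encodes a homeobox transcription factor of the outer epidermis and hair follicle, and the knockout is conditional. The Cre driver, the cells it acts in and the deleted exon are not given in the sources used here. Both genotypes had the carcinogen DMBA on the back, in 3 doses of 100 µg in 200 µl with 1 week between doses, and tissue was taken at week 31, so no group is free of DMBA. The labels give neither the age nor the sex of the mice, nor which animal a tumor or skin came from. Some libraries may thus stem from 1 animal, and every p-value below measures only how these samples spread.

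A skeletal muscle fiber is built of sarcomeres, in which thin filaments of actin and troponin slide along thick filaments of myosin between anchoring Z discs. Calcium released from the sarcoplasmic reticulum binds troponin and starts contraction. Fast and slow fibers use different genes for many of these proteins, so the isoforms show which fiber type a sample holds. The back skin of mice carries a thin sheet of skeletal muscle under the dermis, the panniculus carnosus, which is known for mostly fast fibers, and smooth muscle occurs apart from it in vessels and at hair follicles. In whole tissue, fewer muscle fibers and less muscle RNA per fiber cannot be told apart.

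Libraries held 29265111 to 75707445 alignments. A sample sheet places tumor 5, DLX3cKO skins 2 and 3 and the 3 WT skins in a first sequencing run and tumors 1 to 4 and DLX3cKO skin 1 in a second. The targeted gene, Dlx3, lay at 1.34 to 7.61 RPKM in tumors, at 4.08 to 8.88 RPKM in DLX3cKO skin and at 7.35 to 89.9 RPKM in WT skin. The lowest of the WT values, inside the DLX3cKO range, came from the library labelled WT skin 2. Libraries of 1 group correlated at a Pearson r of 0.874 to 0.972 (tumors), 0.965 to 0.980 (DLX3cKO skin) and 0.887 to 0.952 (WT skin). The ribosomal transcript Rn45s stood at 11833 RPKM in tumor 5 and at 1178 to 3242 RPKM in the other tumors, and at 10021 RPKM in WT skin 1. Xist, which is expressed from the inactive X chromosome, was at 0.0941 to 0.616 RPKM in tumors 3 and 4 and in WT skins 1 and 3, and at 10.1 RPKM or more in the other libraries.

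The upstream sequences are shown for 4 members that are singled out in the results below, and no link between sequence and level was tested. Myh4, Myh1 and Myh2 encode the fast myosin heavy chains of type IIb, IIx and IIa fibers and lie side by side on chromosome 11, and Casq2 is the member whose level did not follow the rest. Each line gives 250 bases before the transcript start, 5′ to 3′, from RefSeq on GRCm38.p6, all on the plus strand. RefSeq and GENCODE place the starts of Myh1 and Myh4 at different bases, and the windows follow RefSeq. They come from chr11:67237562-67237811 for Myh4, chr11:67199852-67200101 for Myh1, chr11:67170777-67171026 for Myh2 and chr3:102086165-102086414 for Casq2. Capitals mark the E-box CAGCTG, the TATA motif TATAAA on either strand and the MEF2 site.
Myh4: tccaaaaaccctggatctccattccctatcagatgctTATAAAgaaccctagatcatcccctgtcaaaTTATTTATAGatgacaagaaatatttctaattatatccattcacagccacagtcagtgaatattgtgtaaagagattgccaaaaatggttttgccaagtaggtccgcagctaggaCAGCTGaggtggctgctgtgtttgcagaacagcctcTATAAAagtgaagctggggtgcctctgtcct
Myh1: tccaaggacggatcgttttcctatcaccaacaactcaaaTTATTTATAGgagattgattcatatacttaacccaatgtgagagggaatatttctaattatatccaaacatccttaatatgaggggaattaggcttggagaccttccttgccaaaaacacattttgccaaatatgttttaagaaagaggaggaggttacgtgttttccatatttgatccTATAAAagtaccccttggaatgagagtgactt
Myh2: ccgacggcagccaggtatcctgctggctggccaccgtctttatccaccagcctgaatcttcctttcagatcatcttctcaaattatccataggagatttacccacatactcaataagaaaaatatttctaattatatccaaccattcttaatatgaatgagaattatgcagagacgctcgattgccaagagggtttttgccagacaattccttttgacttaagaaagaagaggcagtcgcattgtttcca
Casq2: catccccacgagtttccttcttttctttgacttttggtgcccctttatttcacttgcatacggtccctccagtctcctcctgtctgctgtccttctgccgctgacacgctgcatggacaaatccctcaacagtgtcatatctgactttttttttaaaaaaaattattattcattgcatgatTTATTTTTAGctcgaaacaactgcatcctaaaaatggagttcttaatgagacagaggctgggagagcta
The Myh4 window held all 3 motifs, the Myh1 window TATAAA and the MEF2 site, the Casq2 window the MEF2 site, and the Myh2 window no match. RefSeq windows were at hand for 36 of the 45 members, without Neb, Tnni2, Tnnt3, Tcap, Actn3, Myoz1, Myot, Myod1 and Myf6. CAGCTG, the E-box form that myogenic factors are known to bind, stood in 17 of the 36 (47.2%), against 13.0% of 32851 mouse promoter windows of that length. MEF2 sites stood in 8 of the 36 (22.2%), against 2.92% of all windows, and TATAAA in 8 (22.2%), against 12.4%. The wider E-box pattern CANNTG, which includes CAGCTG, stood in 32 (88.9%), against 66.2%. A member counted if any of its windows held the motif, whereas the background counts each window singly, which can raise the members' shares. Both strands were searched, a TATAAA match can overlap a MEF2 site, and matches are descriptions of letters, not binding sites.

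Nearly the whole contractile programme was lower in tumors than in DLX3cKO skin. Of the 42 tested members, 35 were lower in tumors at a limma adjusted p under 0.05 and 0 were higher, where 6.56% of all 14233 tested genes were called lower and 0.998% were called higher. The median log2 fold change of the 42 members was -5.32, and that of all tested genes was -0.23. Fold changes are on the scale of log2(RPKM + 0.5), which understates the change of genes at low levels. In all, the 45 members made up 0.0116% to 0.272% of the summed RPKM in tumors, 1.74% to 3.98% in DLX3cKO skin and 4.21% to 6.63% in WT skin. Every tumor was below every skin of either genotype for 36 of the 45 members. Among the tested genes it was 34 of 42 members, where 7.04% of all tested genes met this. Against DLX3cKO skin, 34 of the 42 tested members did not overlap and were lower in tumors, where 14.8% of all tested genes were, and 0 did so with tumors higher, against 4.65% of all tested genes. At an unadjusted limma p under 0.05 there were 40 of the 42, against 25.7% of all tested genes. The map of levels by library shows the tumor columns dark across all roles, and the plot of fold changes shows the members by role.

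**Figure D1:**
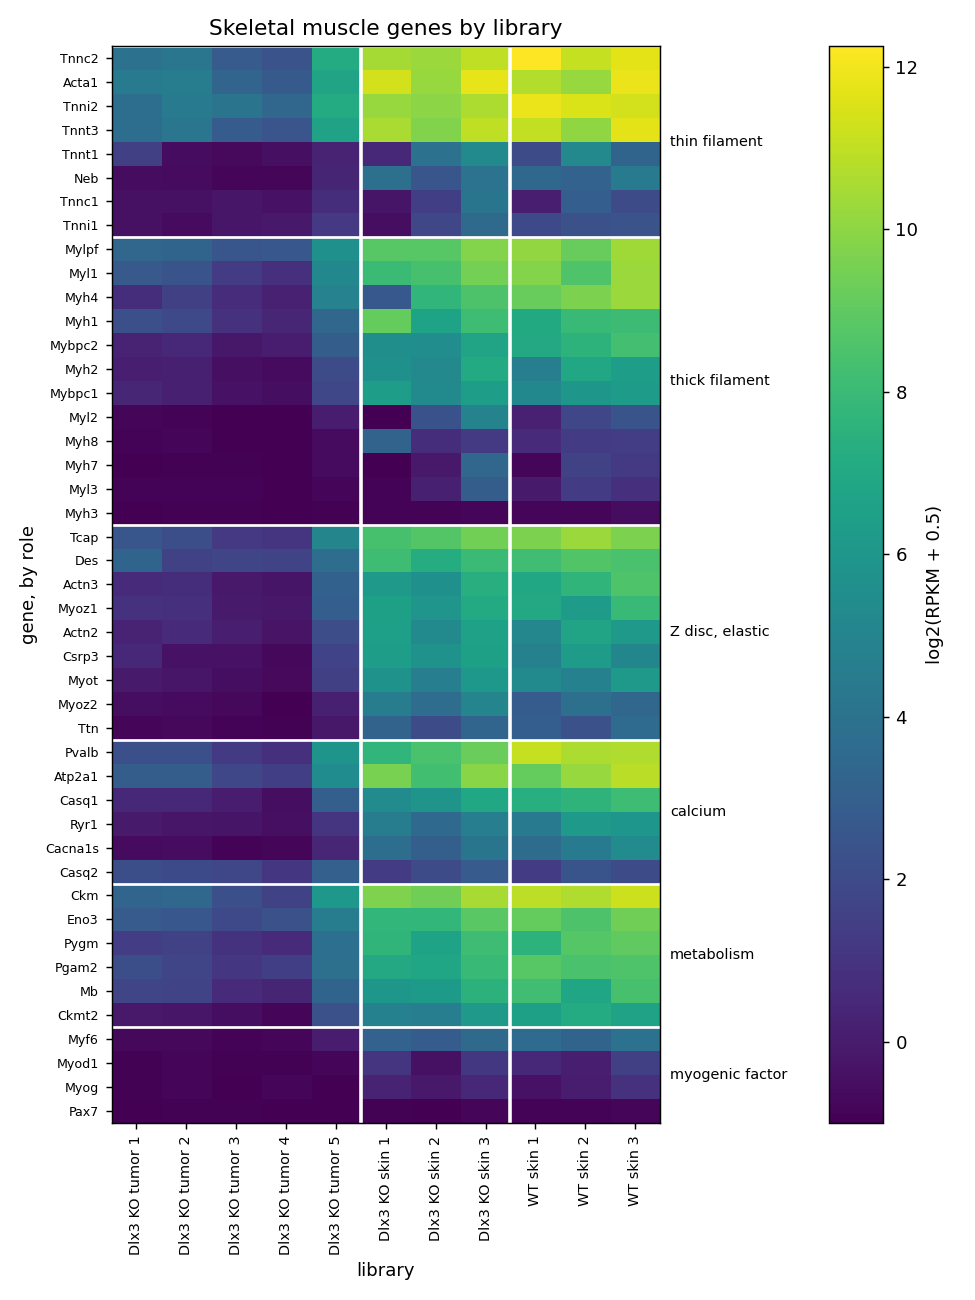
Levels of the 45 genes (rows, by role) in the 11 libraries (columns: tumors, DLX3cKO skin, WT skin), as log2(RPKM + 0.5). Tumor 5 is brighter than the other tumors in most rows, and slow fiber genes such as Myl2 and Tnnc1 are dark in DLX3cKO skin 1.

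Thin filament genes were the most abundant. Acta1, the actin of skeletal muscle fibers, was at 21.1, 23.7, 9.69, 6.24 and 105 RPKM in tumors 1 to 5, at 2608, 1178 and 3469.9 RPKM in DLX3cKO skins 1 to 3 and at 1708, 1178 and 3713 RPKM in WT skins 1 to 3. All tumors were far below all skins, tumor 5 was the highest tumor, and the skins of both genotypes covered the same range. Its log2 fold change in tumors over DLX3cKO skin was -6.73 ± 0.77 (SE; limma adjusted p = 0.000278), the most negative of the members. Tnnc2, the calcium-binding troponin C of fast fibers, was at 15.0, 18.1, 6.40, 4.84 and 140.4 RPKM in tumors, at 1395, 1240.2 and 2042 RPKM in DLX3cKO skin and at 4895, 2178 and 3339.9 RPKM in WT skin. Here all 3 groups were apart, with tumors lowest and WT skin highest, and the fold change of tumors over DLX3cKO skin was -6.47 ± 0.85 (adjusted p = 0.000771, limma). Neb, the giant protein that runs along the thin filament, fell in tumors by 3.95 ± 0.42 on the log2 scale (adjusted p = 0.000163, limma), with levels of 0.0795 to 0.788 RPKM in tumors and 5.26 to 15.8 RPKM in DLX3cKO skin.

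Inhibitory and tropomyosin-binding troponins of fast fibers followed Tnnc2. Tnni2, the fast troponin I, was at 13.3, 22.3, 16.9, 9.87 and 144 RPKM in tumors, at 1200.4, 1003 and 1591 RPKM in DLX3cKO skin and at 3748, 2941 and 2579 RPKM in WT skin. Tumors lay lowest and WT skin highest, with no overlap between any groups. Tnnt3, the fast troponin T, was at 13.4, 17.8, 6.71, 5.14 and 98.2 RPKM in tumors, at 1512, 861 and 2011 RPKM in DLX3cKO skin and at 2086, 1077 and 3332 RPKM in WT skin. For Tnnt3 the skins of both genotypes overlapped and the tumors stood below them. Log2 fold changes in tumors over DLX3cKO skin were -5.68 ± 0.68 for Tnni2 and -6.44 ± 0.79 for Tnnt3 (limma adjusted p = 0.000391 and 0.000437).

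Slow troponins were below the fast ones in every library and did not pass the test between tumors and DLX3cKO skin. Tnnc1, the troponin C of slow fibers and heart, was at 0.247, 0.256, 0.367, 0.288 and 1.14 RPKM in tumors, at 0.338, 2.24 and 17.1 RPKM in DLX3cKO skin and at 0.592, 7.15 and 3.67 RPKM in WT skin. DLX3cKO skin 1 and WT skin 1 were as low as the tumors. Tnni1, the slow troponin I, was at 0.247, 0.166, 0.380, 0.448 and 1.80 RPKM in tumors, at 0.204, 3.02 and 11.4 RPKM in DLX3cKO skin and at 3.24, 4.40 and 4.83 RPKM in WT skin. Tumors and DLX3cKO skin overlapped because of DLX3cKO skin 1, while tumors and WT skin did not overlap. Tnnt1, the slow troponin T, was at 2.37, 0.179, 0.137, 0.222 and 0.766 RPKM in tumors, at 0.899, 15.4 and 39.0 RPKM in DLX3cKO skin and at 3.64, 37.9 and 9.19 RPKM in WT skin. Tumor 1 was the highest tumor for this gene and exceeded DLX3cKO skin 1. Log2 fold changes over DLX3cKO skin were -1.91 ± 0.85 for Tnnc1, -1.64 ± 0.72 for Tnni1 and -3.22 ± 1.01 for Tnnt1, with limma adjusted p of 0.186, 0.181 and 0.0776. For Tnnc1, 1 alignment is worth 0.0183 to 0.0474 RPKM at the alignments listed.

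Within every library the fast isoform of each troponin subunit exceeded the slow one. The log2 ratio of Tnnc2 to Tnnc1, each with 0.5 added, was 4.23 ± 1.47 in the 5 tumors, 8.79 ± 1.92 in the 3 DLX3cKO skins and 9.98 ± 2.01 in the 3 WT skins (mean ± SD). That of Tnni2 to Tnni1 was 4.61 ± 0.96 in tumors, 8.65 ± 1.89 in DLX3cKO skin and 9.37 ± 0.54 in WT skin, and that of Tnnt3 to Tnnt1 was 3.96 ± 1.59 in tumors, 7.17 ± 2.52 in DLX3cKO skin and 7.40 ± 2.26 in WT skin. Tumors minus DLX3cKO skin differed by -4.56 for troponin C and by -4.04 for troponin I, with no overlap, and each gave an exact two-sided permutation p of 0.0357, the smallest that 5 libraries against 3 allow. Without the added 0.5 the groups overlapped for troponin C, with a ratio of 123 in tumor 5 and 119 in DLX3cKO skin 3, and the log2 differences were -3.90 and -3.52. For troponin T the difference was -3.21 (exact permutation p = 0.107). Adjusted over the 6 ratio tests, the exact permutation p-values were 0.107, 0.107 and 0.214. With so few libraries no adjusted value could have fallen under 0.05. DLX3cKO skin minus WT skin differed by -1.18, -0.72 and -0.24 for troponin C, I and T (exact permutation p = 0.5, 0.6 and 1, where 0.1 is the smallest possible). Within the first run the troponin C ratio was 6.43 in tumor 5 and 8.82 and 6.86 in DLX3cKO skins 2 and 3, which is closer than in the second run, at 2.76 to 4.62 in tumors 1 to 4 and 10.70 in DLX3cKO skin 1. The added 0.5 holds ratios of genes at low levels towards 1, and the slow troponins of the tumors are such genes.

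**Figure D2:**
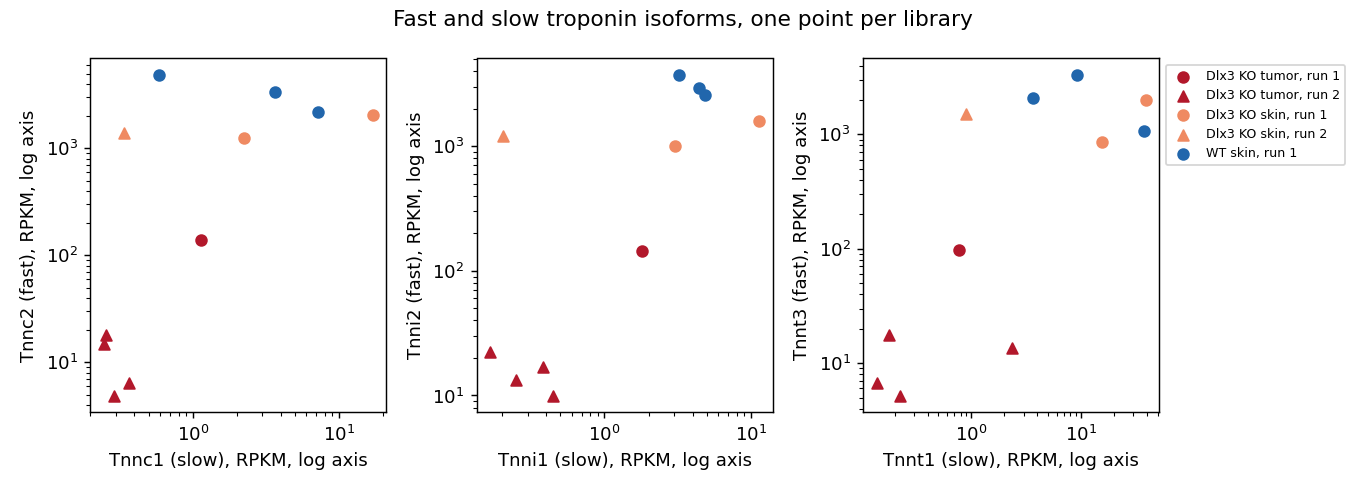
Fast troponin (vertical, RPKM, log axis) against slow troponin of the same subunit (horizontal, RPKM, log axis), 1 point per library, with triangles for the second run. Tumors lie low on both axes, tumor 5 above the other tumors, and DLX3cKO skin 1 combines fast troponins at skin level with slow troponins at 0.204 to 0.899 RPKM.

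Thick filament genes gave 8 called lower of 11 tested. Mylpf, the regulatory myosin light chain of fast fibers, was at 9.80, 9.04, 5.33, 5.48 and 49.5 RPKM in tumors, at 445, 455 and 886 RPKM in DLX3cKO skin and at 1092, 587 and 1343 RPKM in WT skin. Its tumors were apart from both skins, with a log2 fold change of -5.66 ± 0.62 over DLX3cKO skin (limma adjusted p = 0.000228). Myl1, the alkali light chain of fast fibers, was at 6.03, 5.04, 2.08, 1.29 and 35.8 RPKM in tumors, at 264, 332 and 724 RPKM in DLX3cKO skin and at 894, 394 and 1249 RPKM in WT skin. The fold change was -6.13 ± 0.82 (limma adjusted p = 0.000908), with tumors apart from both skins. Myosin binding proteins C of the slow type (Mybpc1) and the fast type (Mybpc2) fell in tumors by 5.71 ± 0.50 and 5.23 ± 0.63 on the log2 scale (limma adjusted p = 6.6e-05 and 0.000399). Light chains of slow fibers and heart, Myl2 and Myl3, had log2 fold changes of -2.81 ± 1.01 and -1.62 ± 0.65 and did not pass (limma adjusted p = 0.112 and 0.147). Myl2 was at 0, 4.51 and 29.7 RPKM in DLX3cKO skins 1 to 3, a wider spread than in WT skin, at 0.644 to 4.88 RPKM.

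Among the myosin heavy chains, the motor proteins that set the speed of a fiber, the fast forms Myh4, Myh1 and Myh2 made up nearly all. Myh4 was at 1.15, 2.34, 1.09, 0.646 and 29.1 RPKM in tumors, at 5.88, 212 and 376 RPKM in DLX3cKO skin and at 571, 803 and 1237 RPKM in WT skin. Tumor 5 was above DLX3cKO skin 1, so tumors and DLX3cKO skin overlapped, and the call was at the threshold, with a log2 fold change of -4.72 ± 1.30 (limma adjusted p = 0.0499). Over 24 alternative settings the adjusted p of Myh4 ran from 0.00112 to 0.359, and it was not called under 16 of them. Myh1 was at 4.18, 3.34, 1.36, 0.834 and 9.83 RPKM in tumors, at 563, 102 and 279 RPKM in DLX3cKO skin and at 133, 241 and 271 RPKM in WT skin. Myh2 was at 0.566, 0.603, 0.229, 0.159 and 3.55 RPKM in tumors, at 50.4, 37.2 and 138 RPKM in DLX3cKO skin and at 25.1, 122 and 82.7 RPKM in WT skin. Both were apart between tumors and skins while the skins overlapped, with log2 fold changes of -6.21 ± 0.67 for Myh1 and -5.77 ± 0.67 for Myh2 over DLX3cKO skin (limma adjusted p = 0.000193 and 0.000320).

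Myosins of slow and developing fibers were scarce. Myh7, the slow myosin shared with the heart, was at 0.00682, 0.0219, 0.0255, 0.00757 and 0.158 RPKM in tumors, at 0.0106, 0.448 and 9.85 RPKM in DLX3cKO skin and at 0.0955, 2.52 and 1.91 RPKM in WT skin. Its groups overlapped and it did not pass (log2 fold change -1.66 ± 0.82, limma adjusted p = 0.230). The perinatal Myh8 was at 0.0393, 0.0709, 0.0175, 0.00763 and 0.158 RPKM in tumors, at 8.91, 1.15 and 1.90 RPKM in DLX3cKO skin and at 1.01, 2.01 and 2.15 RPKM in WT skin. Tumors were apart from all skins, DLX3cKO skin 1 was the highest, and the fold change was -2.59 ± 0.46 (limma adjusted p = 0.00599). Embryonic Myh3 was at 0, 0.0223, 0.0225, 0.00718 and 0.0306 RPKM in tumors, at 0.0511, 0.0542 and 0.0765 RPKM in DLX3cKO skin and at 0.0748, 0.0726 and 0.171 RPKM in WT skin, too low to be tested.

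The split of the heavy chains between Myh4 and Myh1 moved with the sequencing run. Myh4 made up 19.4%, 36.5%, 39.8%, 38.9% and 67.9% of the summed heavy chain RPKM in tumors 1 to 5, 0.936%, 60.1% and 46.7% in DLX3cKO skins 1 to 3 and 78.2%, 68.6% and 77.5% in WT skins 1 to 3. Myh1 made up 70.3%, 52.2%, 49.5%, 50.2% and 23.0% in tumors, 89.6%, 28.9% and 34.7% in DLX3cKO skin and 18.2%, 20.6% and 17.0% in WT skin. Myh1 exceeded Myh4 in all 5 libraries of the second run (tumors 1 to 4 and DLX3cKO skin 1), and Myh4 exceeded Myh1 in all 6 of the first, a split noticed after the values were seen and not tested. Most libraries of the second run were tumors and most of the first were skins. Run and tissue can thus be told apart only through tumor 5 and DLX3cKO skin 1. The paralogs share sequence. Of the windows of 50 bases in the longest transcript, 18.9% for Myh4, 26.7% for Myh1, 26.9% for Myh2 and 21.4% for Myh8 also occur in another gene, as do 22.2% for Myh7 (in Myh6) and 23.4% for Myl1 (in the pseudogene Mylf-ps). The sources used here do not say how reads of these windows were counted, so levels of single myosins are uncertain. On GRCm38 (GENCODE M21) chromosome 11 holds Myh2 at 67171027 to 67197517, Myh1 at 67200052 to 67224575 and Myh4 at 67238029 to 67260446, all on the plus strand.

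**Figure D3:**
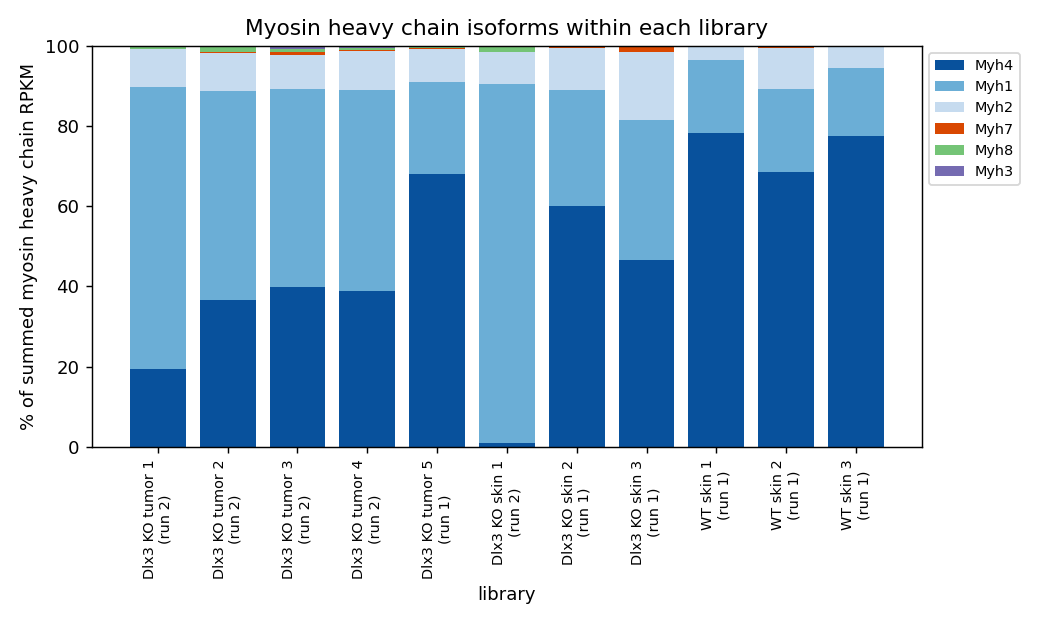
Share of each skeletal myosin heavy chain in the summed heavy chain RPKM of a library (vertical, percent), with the sequencing run under each library. Myh4 takes 0.936% in DLX3cKO skin 1 and 68.6% to 78.2% in WT skin.

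Z disc and elastic filament genes were lower in tumors without exception among the 9 tested. Tcap, the cap that ties titin to the Z disc, was at 5.42, 4.05, 1.79, 1.53 and 32.6 RPKM in tumors, at 342, 412 and 693 RPKM in DLX3cKO skin and at 809, 1218 and 808 RPKM in WT skin. All 3 groups were apart, tumors lowest and WT skin highest, with a log2 fold change of -6.44 ± 0.74 over DLX3cKO skin (limma adjusted p = 0.000306). Des, the intermediate filament protein desmin, which smooth muscle also expresses, was at 9.17, 2.62, 2.87, 2.83 and 13.0 RPKM in tumors, at 278, 148 and 257 RPKM in DLX3cKO skin and at 291, 398 and 348 RPKM in WT skin. Its 3 groups were apart in the same order, with a fold change of -5.35 ± 0.49 (limma adjusted p = 6.6e-05). Titin (Ttn, the molecular spring), the alpha-actinins Actn2 and Actn3, the calsarcins Myoz1 and Myoz2, myotilin (Myot) and the LIM protein Csrp3 had log2 fold changes between -6.05 (Csrp3) and -3.55 (Ttn). Myoz2, the calsarcin of slow fibers, fell in tumors by 5.01 ± 0.35 on the log2 scale (limma adjusted p = 4.15e-05).

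Calcium handling genes gave 5 called lower of 6, and the exception was Casq2. Pvalb, the calcium buffer parvalbumin of fast fibers, was at 4.15, 4.23, 1.90, 1.28 and 58.3 RPKM in tumors, at 208, 344 and 608 RPKM in DLX3cKO skin and at 2154, 1596 and 1649.8 RPKM in WT skin. All 3 groups were apart, and WT skin had the highest levels. Atp2a1, the calcium pump SERCA1 of fast fibers, was at 7.06, 7.05, 2.98, 2.28 and 43.0 RPKM in tumors, at 772, 307 and 944 RPKM in DLX3cKO skin and at 565, 1168 and 1913 RPKM in WT skin. Only the tumors were apart for Atp2a1, and its log2 fold change over DLX3cKO skin was -6.34 ± 0.79, beside -5.98 ± 0.91 for Pvalb (limma adjusted p = 0.000516 and 0.00226). Ryr1, the calcium release channel, Cacna1s, its voltage sensor, and Casq1, the calcium store protein of fast fibers, had fold changes of -4.24, -4.14 and -5.34. Casq2, the store protein of heart and slow fibers, was at 4.01, 3.37, 3.0, 1.67 and 7.84 RPKM in tumors, at 2.02, 3.73 and 6.38 RPKM in DLX3cKO skin and at 1.98, 4.96 and 3.72 RPKM in WT skin. The 3 groups covered one range, tumor 5 was the highest library, and the log2 fold change was -0.04 ± 0.44 (limma adjusted p = 0.961). Its sign turned under 8 of 24 alternative settings, which gave -0.41 to 0.63.

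Genes of muscle energy metabolism were lower in tumors in 6 of 6 cases. Ckm, the creatine kinase that buffers ATP in muscle, was at 9.43, 10.3, 4.19, 2.51 and 66.7 RPKM in tumors, at 816, 673 and 1456 RPKM in DLX3cKO skin and at 1978, 1666 and 2422 RPKM in WT skin. Tumors, DLX3cKO skin and WT skin followed each other without overlap, and the log2 fold change of tumors over DLX3cKO skin was -6.53 ± 0.78 (limma adjusted p = 0.000398). Eno3, the muscle enolase of glycolysis, was at 6.56, 5.61, 3.26, 4.41 and 23.5 RPKM in tumors, at 219, 216 and 474 RPKM in DLX3cKO skin and at 567, 374 and 669 RPKM in WT skin. The tumors stood apart and the skins overlapped, with a fold change of -5.30 ± 0.52 (limma adjusted p = 0.000107). Glycogen phosphorylase (Pygm), muscle phosphoglycerate mutase (Pgam2), myoglobin (Mb) and mitochondrial creatine kinase (Ckmt2) had log2 fold changes of -5.82, -5.16, -5.03 and -5.07.

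Myogenic factors, the regulators of muscle genes, were low in all libraries except for Myf6 in skin. Myf6 (MRF4), the factor that stays on in mature fibers, was at 0.103, 0.118, 0.0564, 0.0663 and 0.509 RPKM in tumors, at 8.36, 6.77 and 11.5 RPKM in DLX3cKO skin and at 12.0, 9.31 and 15.1 RPKM in WT skin. Tumors were apart from all skins, with a log2 fold change of -3.81 ± 0.26 over DLX3cKO skin (limma adjusted p = 4.15e-05). Myod1, which commits cells to the muscle lineage, was at 0.0262, 0.0697, 0.0286, 0.0224 and 0.0983 RPKM in tumors, at 1.51, 0.246 and 1.70 RPKM in DLX3cKO skin and at 0.951, 0.570 and 2.35 RPKM in WT skin. Tumors were again apart, but the call (log2 fold change -1.44 ± 0.38, limma adjusted p = 0.0423) was lost under 13 of 21 alternative settings, whose adjusted p ran from 0.00776 to 0.368. Myog, the factor of muscle differentiation, was at 0.0218, 0.0623, 0, 0.0702 and 0 RPKM in tumors, at 0.691, 0.435 and 0.968 RPKM in DLX3cKO skin and at 0.288, 0.514 and 1.33 RPKM in WT skin, so that its tumors were also below all skins. Pax7, the marker of satellite cells, was at 0.00378, 0.0302, 0.0289, 0.00486 and 0.0142 RPKM in tumors, at 0.0266, 0.0146 and 0.0591 RPKM in DLX3cKO skin and at 0.0532, 0.0395 and 0.0962 RPKM in WT skin, with DLX3cKO skin overlapping both other groups and tumors below WT skin.

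**Figure D4:**
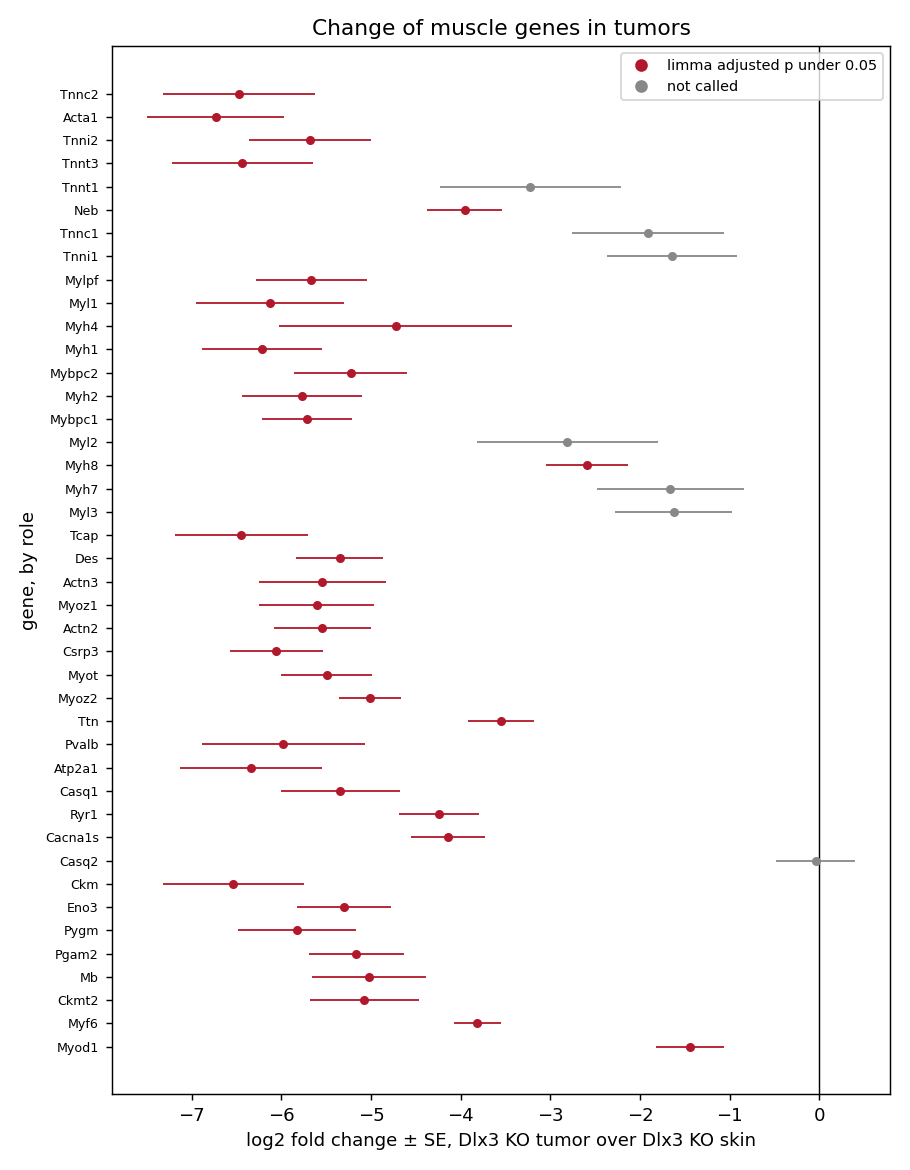
Log2 fold change of tumors over DLX3cKO skin with its SE (horizontal) for the 42 tested genes, ordered by role. Genes called at a limma adjusted p under 0.05 are in red, and those not called are in grey: Tnnt1, Tnnc1, Tnni1, Myl2, Myh7, Myl3 and Casq2, all slow fiber genes.

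Set apart by fiber type, all 14 fast fiber members were called lower in tumors (median log2 fold change -5.73) and 2 of 9 slow fiber members, Mybpc1 and Myoz2 (median -1.91). Among all tested genes 6.56% were called lower. Apart from Casq2, the slow members without a call averaged 0.0399 to 0.735 RPKM in tumors. At such levels the added 0.5 understates a fall, so the medians do not show that slow genes fell less than fast ones. The 7 slow members without a call had levels in DLX3cKO skin that spread from at or near 0 in DLX3cKO skin 1 to many times that in DLX3cKO skin 3, except for Casq2. Mybpc1 and Myoz2 did not share this spread. Mybpc1 was at 85.6, 38.1 and 82.0 RPKM in DLX3cKO skins 1 to 3, and Myoz2 at 24.4, 12.9 and 32.7 RPKM. Without DLX3cKO skin 1, Tnni1, Tnnt1 and Myl2 were called lower in tumors (limma adjusted p = 0.0189, 0.0114 and 0.00624). Over all alternatives their adjusted p ran from 0.0146 to 0.625, from 0.00206 to 0.864 and from 0.00624 to 0.417. The summed RPKM of Tnnc1, Tnni1, Tnnt1, Myh7, Myl2 and Myl3 was 3.8%, 0.764%, 2.03%, 2.90% and 0.691% of the fast sum in tumors 1 to 5. It was 0.0226%, 0.514% and 1.13% in DLX3cKO skins 1 to 3 and 0.0520%, 0.484% and 0.141% in WT skins 1 to 3. Tumors 1, 3 and 4 were above all skins in this share, and DLX3cKO skin 1 was the lowest library. The slow sum leaves out the slow members Mybpc1, Myoz2 and Casq2. It was only 0.719 to 4.43 RPKM in tumors and 1.51 RPKM in DLX3cKO skin 1. In tumor 1 most of it came from Tnnt1, at 2.37 RPKM. The share therefore does not show that slow fiber RNA rose against fast fiber RNA in tumors.

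Tumors differed among themselves in how much muscle RNA they held. Over the 33 members with at least 10 RPKM in mean DLX3cKO skin, the median level was 1.13%, 1.16%, 0.482% and 0.339% of that skin in tumors 1 to 4 and 6.80% in tumor 5. Tumor 5 was the highest tumor in 42 of the 45 members and tumor 4 the lowest in 30. Among DLX3cKO skins, skin 3 was highest in 41 and skin 2 lowest in 30, and WT skin 3 was highest of its group in 28. The order of the 45 genes by level was alike in tumors and skins, with Spearman coefficients of 0.827 to 0.960 over the 30 pairs of a tumor and a skin, which describe genes within libraries. Tumor 5 was the one tumor of the first run and the one with the most Rn45s, and the part of run or Rn45s in its muscle levels was not tested. Without tumor 5, 34 members were called lower than in DLX3cKO skin, with a median log2 fold change of -5.75.

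The members were also compared within each sequencing run. In the first run alone, with tumor 5 against 2 DLX3cKO skins, 32 of 43 tested members were called lower, where 10.1% of all tested genes were, and their median log2 fold change was -3.50, against -0.57 for all genes. In the second run alone, with 4 tumors against DLX3cKO skin 1, 33 of 36 were called lower, where 1.2% of all tested genes were, with a median of -5.88, against -0.08 for all genes. In each run 1 arm is a lone library, which is assumed to vary like the other groups, so these calls rest on tumor 5 and on DLX3cKO skin 1. Acta1 had a log2 fold change of -4.26 in the first run and -7.57 in the second. With run as a term in the fit of all libraries, 34 members were called lower.

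Between DLX3cKO skin and WT skin no member passed the test. At a limma adjusted p under 0.05, 0 members were lower and 0 were higher, as in 0% of all tested genes in either direction, and at an unadjusted p under 0.05 there were 8 of 42, where 8.63% of all tested genes were. Log2 fold changes of DLX3cKO skin over WT skin were negative for 28 of the 42 members, with a median of -0.57, against 0.06 for all genes. Among all 14233 tested genes 6170 were negative. Of the 14 fast members 12 were negative (median -1.02), and of the 9 slow members 2 were (median 0.07). Most slow members spread widely in DLX3cKO skin, as with Myl2 at 0 RPKM in skin 1 and 29.7 RPKM in skin 3. Their median therefore does not show an unchanged level. Groups did not overlap, with DLX3cKO skin the lower, for 11 members, Tnnc2, Tnni2, Myh4, Mybpc2, Tcap, Des, Casq1, Pvalb, Ckm, Ckmt2 and Pgam2, where 5.1% of all tested genes did so. With DLX3cKO skin the higher it was 0 members, against 11.3% of all tested genes. Myh4 averaged 198 ± 185 RPKM over the 3 DLX3cKO skins, against 870.5 ± 338 RPKM over the 3 WT skins (SD), a log2 fold change of -3.37 ± 1.45 (SE; limma unadjusted p = 0.0399, adjusted p = 0.547). For Pvalb the fold change was -2.34 ± 1.02 (limma adjusted p = 0.553), and for Myoz2, the one member positive at an unadjusted p under 0.05, it was 1.10 ± 0.39 (limma adjusted p = 0.422). When the library labelled WT skin 2 was left out, because its Dlx3 lay in the DLX3cKO range, again 0 members were called, the median was -0.69, and Pvalb was at -2.42 (limma adjusted p = 0.495, and no lower than 0.0866 over its alternatives). All WT skins were in the first run, so for DLX3cKO skin 1 genotype and run cannot be told apart. Xist was at 10.1 to 14.6 RPKM in the DLX3cKO skins, and at 0.466, 12.5 and 0.149 RPKM in WT skins 1 to 3. Except for WT skin 2, genotype and the sex that Xist points to thus cannot be told apart in the skins. The part of sex in the muscle values was not tested. In the first run alone 0 members were called and their median was -0.57, and with run as a term their median was -0.19. The median moved to -1.12 without DLX3cKO skin 3 and to -0.35 without DLX3cKO skin 2. Other cell types leaned as well in DLX3cKO skin over WT skin. Hair shaft markers were negative in 9 of 9 (median -3.16), adipocyte markers in 10 of 11 (median -0.73), and keratinocyte markers were positive in 9 of 9 (median 1.0), with 0 called in each list. Their part in the muscle values was not tested.

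Nearly all members were also lower in tumors than in WT skin. Of the 42 tested, 36 were called lower in tumors and 0 higher, where 12% and 3.56% of all tested genes were, and the median log2 fold change was -5.95, against -0.14 for all genes. Groups did not overlap, with tumors lower, for 39 of the 42, and with tumors higher for 0, against 12.2% and 3.89% of all tested genes. At an unadjusted limma p under 0.05 there were 38, against 29.5% of all tested genes. This comparison shares the tumors with that of tumors over DLX3cKO skin, so the values stand side by side and are no second piece of evidence. It shares the WT skins with the comparison of the skins. Hair shaft markers were called lower in 9 of 9 over WT skin as well (median -5.68), adipocyte markers in 9 of 11 (median -3.92) and macrophage markers in 6 of 7 (median -1.71), and their part in the muscle result was not tested. Pvalb was at -8.32 ± 0.91 and Myh4 at -8.10 ± 1.30 over WT skin (limma adjusted p = 0.000125 and 0.00184). Tnnt1 passed here (log2 fold change -3.49 ± 1.01, limma adjusted p = 0.0379, lost under 12 of 23 alternatives with 0.0104 to 0.389), and the members not called were Tnnc1, Tnni1, Myh7, Myl2, Myl3 and Casq2.

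Other genes of muscle, from lists beyond the 45 members, followed in the parts that act in mature fibers. The share of all tested genes called lower in tumors over DLX3cKO skin was 6.56%. In tumors over DLX3cKO skin, 19 of 20 further sarcomere genes were called lower (median log2 fold change -3.85), among them Myom1 of the M line (-4.38 ± 0.33), Lmod3, which nucleates actin (-3.94 ± 0.30), and its stabilizer Klhl40 (-3.70 ± 0.31). All 12 further genes of excitation and contraction coupling were called lower (median -3.27), among them Jsrp1 (-5.56 ± 0.48), the calcium pump regulator Sln (-4.55 ± 0.37) and Hrc of the sarcoplasmic reticulum (-4.47 ± 0.39). The dystrophin complex gave 8 of 10 (median -1.56), with Sgca and Cav3 at -3.78 ± 0.33 and -3.19 ± 0.24. Further metabolic genes gave 10 of 10 (median -3.59), with the muscle cytochrome oxidase subunits Cox6a2 and Cox7a1 and the fatty acid carrier Fabp3 at -5.86 ± 0.53, -4.43 ± 0.40 and -5.43 ± 0.54. The neuromuscular junction gave 3 of 5 tested of 9 listed, Rapsn, Chrnb1 and Ache, at -1.53 ± 0.26, -1.10 ± 0.27 and -2.06 ± 0.56. All 3 genes of atrophy and growth control were called lower, the ubiquitin ligases Trim63 and Fbxo32 and the growth inhibitor Mstn, at -4.58 ± 0.49, -2.08 ± 0.45 and -3.22 ± 0.46. The limma adjusted p of these named genes ran from 4.15e-05 to 0.0482.

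Genes of muscle development went both ways. Of 6 tested of 11 listed, the cadherin Cdh15 of satellite cells and myoblasts fell in tumors by 1.32 ± 0.25 on the log2 scale (limma adjusted p = 0.00878). Tnnt2, the troponin T of heart and of embryonic skeletal muscle, was at 5.71, 17.4, 9.52, 12.7 and 31.5 RPKM in tumors, at 4.85, 3.43 and 2.98 RPKM in DLX3cKO skin and at 3.88, 3.27 and 4.84 RPKM in WT skin. Every tumor was above every skin, and Tnnt2 rose in tumors over DLX3cKO skin by 1.70 ± 0.43 (limma adjusted p = 0.0357), a call that held under 12 of 24 alternatives, with 0.000300 to 0.625. The embryonic actin Actc1 was not called (-1.20 ± 0.39, limma adjusted p = 0.0868). The heart markers Myh6, Nppa, Mybpc3, Nkx2-5 and Ryr2 were at 0.212 RPKM or less in all tumors, while the heart genes Myl7 and Tnni3 were at 1.08 to 11.8 RPKM and at 1.59 to 5.45 RPKM there. Neither was called over DLX3cKO skin. Over WT skin, where it lay at 0.0996 to 1.003 RPKM, Myl7 was called higher in tumors (log2 fold change 2.15 ± 0.53, limma adjusted p = 0.0197), and Tnni3 was not called (0.77 ± 0.34, limma adjusted p = 0.152).

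Markers of other cell types in skin were read beside the members. Among all tested genes, 6.56% were called lower in tumors over DLX3cKO skin and 0.998% were called higher. Smooth muscle markers gave 1 called lower of 7 in tumors over DLX3cKO skin (median log2 fold change -0.69), with a summed level of 38.1 to 95.8 RPKM in tumors, 80.8 to 129 RPKM in DLX3cKO skin and 81.9 to 182 RPKM in WT skin. Adipocyte markers gave 9 of 11 (median -3.39), with sums of 463 to 3027 RPKM in tumors, 1808 to 3778 RPKM in DLX3cKO skin and 3213 to 4519.9 RPKM in WT skin. Fabp4 held most of the tumor sums, and without it the other 10 markers summed to 40.4 to 248 RPKM in tumors, 1030.5 to 2565 RPKM in DLX3cKO skin and 1727 to 2633 RPKM in WT skin. Schwann cell markers gave 3 of 6, with sums of 8.66 to 19.2 RPKM in tumors, 40.5 to 44.0 RPKM in DLX3cKO skin and 31.1 to 56.9 RPKM in WT skin. Macrophage markers gave 6 of 7 (median -1.84), with sums of 52.5 to 247 RPKM in tumors, 269 to 381 RPKM in DLX3cKO skin and 287 to 339 RPKM in WT skin. The calls in the adipocyte, Schwann cell and macrophage lists were in the same direction as in the muscle genes, and their part in the muscle result was not tested. Fibroblast markers gave 0 of 7 called by limma (3 at an unadjusted p under 0.05), with sums of 168 to 1698 RPKM in tumors, 689 to 1406 RPKM in DLX3cKO skin and 1150.5 to 2221 RPKM in WT skin. Endothelial markers gave 1 of 6 and hair shaft markers 3 of 9, all lower, and keratinocyte markers gave 2 of 9, both higher. Keratinocyte sums, which check the tissue label, were 17529.9 to 49694 RPKM in tumors, 24242 to 26492 RPKM in DLX3cKO skin and 4755 to 30939.7 RPKM in WT skin.

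**Figure D5:**
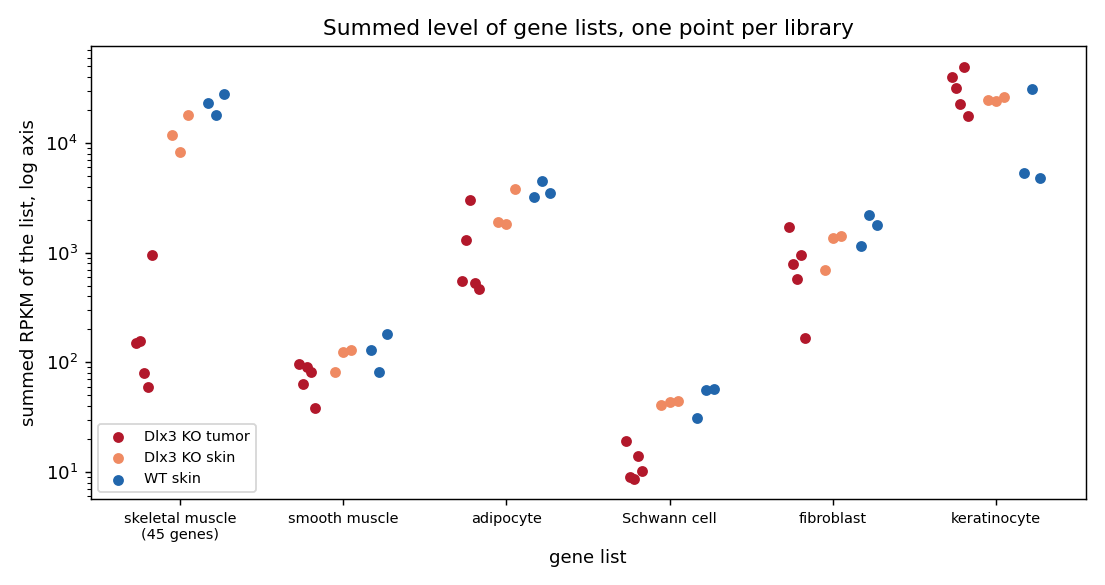
Summed RPKM (vertical, log axis) of the 45 skeletal muscle genes and of 5 marker lists, 1 point per library, for tumors, DLX3cKO skin and WT skin. The skeletal muscle sum spans 58.9 to 953 RPKM in tumors, 8279 to 17819 RPKM in DLX3cKO skin and 18116 to 27984 RPKM in WT skin, while the smooth muscle sums of the groups overlap.

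The authors' deposited table of comparisons gave q-values under 0.05 for 34 of the 45 members in tumors over DLX3cKO skin, for 0 in DLX3cKO skin over WT skin (lowest q = 0.790) and for 37 in tumors over WT skin. Over all genes of the authors' deposited table the shares under that q-value were 2.25%, 0.028% and 8.5% for these comparisons. For Acta1 the authors' deposited table gave a ratio of tumors to DLX3cKO skin of 0.00914 with a q-value of 0.00698.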

How the data were processed

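Per the labels' protocols, libraries were made from total RNA without ribosomal RNA and read as single ends of 50 bases on 1 of 2 instruments, with no word on which. The submitters' processing notes list the build mm10 and the tools Partek, Bowtie (both without a version), TopHat2 2.1.1 and bcl2fastq 2.20.0.422. The count of alignments per library comes from the sample sheet deposited with the data. Per the file headers, the authors used Partek to compute the deposited RPKM of each gene. The comparison table the authors deposited gives log2 means of each group, a p-value and q-value per gene and a ratio of groups, all from the authors' ANOVA per the file headers.

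Values were taken as log2(RPKM + 0.5) for the 14233 genes that averaged 0.5 RPKM or more. A single limma fit (3.58.1, under R 4.3.3) held all 3 groups, with trend and robust moderation on 8 residual degrees of freedom, two-sided, with Benjamini-Hochberg adjustment over all tested genes. Troponin ratios had exact permutation tests over libraries. Counts per gene were not used here, so precision at low levels was judged from the spread between libraries. Per-library values were given for the 2 most abundant members of each role, the troponins, the myosin heavy chains and the myogenic factors, and up to 3 genes of the smallest p of each other muscle list were named, except 1 that is not reported here. Tnnt2 fell under that rule, and the heart genes were detailed after their values were seen. The members and lists were chosen with earlier results of these data known. Scripts were tested on simulated data. Positions and transcripts are from GENCODE M21 and promoter windows from RefSeq. Other steps used matplotlib 3.10.9, scipy 1.17.1, pandas 2.3.3 and numpy 2.4.6 under Python 3.11.15. Alternatives covered pseudocount, filter, scaling, limma settings, library weights, groups in the fit, run, replicate block and leaving out each library. The second run alone was added after seeing the data.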

Additional observations from a re-analysis of the deposited data

Results flagged for a closer look

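In 17 of the 42 tested members the level in tumor 5, on the scale of log2(RPKM + 0.5), stood out from the other 4 tumors. Its gap to the nearest of them was above Dixon's 95% critical value for 5 samples. The log2 troponin ratios were screened as well, and no tumor was flagged in them. Chance flags about 1 in 20 groups, and the genes of 1 library are not independent. Tumor 5 stood at 0.788 RPKM for Neb, 1.14 RPKM for Tnnc1 and 1.80 RPKM for Tnni1 among the thin filament genes. Among the thick filament genes it stood at 3.55 RPKM for Myh2, 29.1 RPKM for Myh4, 0.158 RPKM for Myh7, 0.505 RPKM for Myl2, 49.5 RPKM for Mylpf and 6.98 RPKM for Mybpc2. Among the Z disc genes it stood at 0.407 RPKM for Ttn, 8.28 RPKM for Actn3 and 2.35 RPKM for Myot. The remaining values were 1.57 RPKM for Ryr1, 0.846 RPKM for Cacna1s, 58.3 RPKM for Pvalb, 4.43 RPKM for Ckmt2 and 0.509 RPKM for Myf6. Tumor 5 was the only tumor of the first sequencing run, and the part of the run in these levels was not tested.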

How the results depend on the processing

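The number of members called lower was 35 in tumors over DLX3cKO skin, with 32 to 40 over all alternatives and 33 to 37 when 1 library was left out. Over WT skin it was 36, with 33 to 38 over all alternatives and also when 1 library was left out. Members called higher, and members called in either direction in DLX3cKO skin over WT skin, were 0 by limma under every alternative. Of the 35 calls 31 held under every alternative run, and Myh2, Myh4, Myh8 and Myod1 were lost under at least 1. Of the 36 calls over WT skin 32 held, and Myh2, Myh8, Myod1 and Tnnt1 were lost under at least 1. Same-numbered libraries did not deviate together (correlations of -0.41 to 0.18, beside -0.19 to 0.38 for unlike numbers), so the numbers were not read as pairs. With so few libraries this cannot exclude that some share an animal. With the replicate number as a block, 32 members were called lower over DLX3cKO skin, 0 in DLX3cKO skin over WT skin and 34 in tumors over WT skin. The cause of these changes was not tested. Median-ratio and quantile scaling moved the median log2 fold change of all genes in tumors over DLX3cKO skin to 0.02 and 0.09, and the members' median to -5.05 and -5.0.

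Signs turned for values near 0. Casq2 in tumors over DLX3cKO skin became 0.21 (median-ratio scaling), 0.32 (quantile scaling), 0.52 (run as a term), 0.63 (first run alone), 0.43 (second run alone), 0.01 and 0.18 (without tumors 3 and 4) and 0.32 (without DLX3cKO skin 3), and leaving out 1 library gave -0.41 to 0.32. Casq2 in tumors over WT skin became -0.045 (library weights), -0.18 (without tumor 5) and -0.24 (without WT skin 1), with -0.24 to 0.33 when 1 library was left out. Acta1 in DLX3cKO skin over WT skin became -0.37 (quantile scaling), -0.010 (library weights), -0.16 (without DLX3cKO skin 3) and -0.19 (without WT skin 2), and Myod1 there became 0.36 (without DLX3cKO skin 2) and 0.26 (without WT skin 3), with -0.45 to 0.36 when 1 library was left out. When 1 library was left out, the log2 troponin ratios of tumors minus DLX3cKO skin ran from -5.53 to -3.60 for troponin C, -4.84 to -3.0 for troponin I and -3.96 to -1.76 for troponin T. Those of DLX3cKO skin minus WT skin ran from -2.14 to -0.11, from -1.76 to 0.074 and from -1.69 to 0.55. RPKM carry no counts, so the depth behind single low values is known only through the alignments per library.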
